A study of Mus musculus with 4 samples.

Results

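Toll-like receptors and the proteins that work next to them at the membrane were followed through a bulk RNA-seq study of mouse microglia. The genes are the receptors Tlr1, Tlr2, Tlr3, Tlr4, Tlr7, Tlr9 and Tlr13, the lipopolysaccharide co-receptors Cd14 and Ly96, and the adaptor Myd88. They were chosen by name, and all 10 were found among the 21044 genes of the deposited expression table. The cells were microglia isolated from the corpus callosum, the large white matter tract that joins the hemispheres, of 7-day-old pups (P7). There were 2 libraries from Lag3cKO-Cx3 mice (genotype label ko, here cKO) and 2 from Lag3fl/fl mice (genotype label wt, here WT). Both groups thus carry floxed Lag3, which encodes an inhibitory immune receptor. By its name the cKO line deletes the gene through a Cx3 driver, and such drivers act in microglia and in other cells that use Cx3cr1, such as border macrophages and blood monocytes. Whether a library is 1 pup or a pool, and whether the WT pups carry the driver, the labels do not say, so p-values measure the spread between these libraries only.

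Toll-like receptors bind conserved microbial molecules and products of damaged cells. TLR1, TLR2 and TLR4 act at the cell surface on lipopeptides and lipopolysaccharide, with CD14 delivering the ligand and MD-2 (Ly96) holding it on TLR4, whereas TLR3, TLR7, TLR9 and TLR13 act in endosomes on double-stranded RNA, single-stranded RNA, CpG DNA and bacterial ribosomal RNA. All of them except TLR3 signal through MyD88 to NF-kB and cytokine genes, and TLR3, like internalized TLR4, uses TRIF and leads to type I interferon. Microglia are the main cells of the brain parenchyma that express these receptors.

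Each library held between 14645187 and 16770162 counts. The second cKO library stood apart, with correlations of 0.862 to 0.871 to the other 3 across genes on log2(CPM + 1), against 0.935 to 0.956 among those 3, and values without it are given below where it moved them most. Lag3 had 595 and 257 counts in the cKO libraries, against 6064 and 10007 in the WT libraries. Cx3cr1 was at 3219 ± 262.2 CPM in cKO and 6498 ± 78.5 CPM in WT (SD, n = 2 each). Lag3 and Cx3cr1 were thus both lower in cKO. The parts of Lag3, Cx3cr1 and the driver in the differences of other genes cannot be told apart in these groups. All 10 markers of microglia were detected in every library and summed to 21781 and 21474 CPM in the cKO libraries, against 18056 and 21872 CPM in the WT libraries. In bulk RNA, fewer cells of a type and less RNA per cell cannot be told apart. Transcripts linked to sex also differed, with Xist counted in the cKO libraries only and Ddx3y absent from cKO replicate 2 only. The part of this in the values of the other genes was not tested.

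Levels per transcript length were compared in FPKM, in which the authors divided by the combined length of a gene's exons. Tlr13 had the highest mean level of the 10 genes in both groups, at 95.7 ± 1.20 FPKM in cKO and 97.6 ± 11.4 FPKM in WT (SD, n = 2 each), above 97.5 to 98.0% of all genes in each library. In WT it was followed by Cd14 at 93.5 ± 1.97, Tlr2 at 84.2 ± 2.56, Tlr7 at 66.7 ± 8.72 and Tlr1 at 47.3 ± 6.86 FPKM (SD, n = 2). Lower WT levels were found for Tlr4 at 30.7 ± 5.999, Myd88 at 29.6 ± 2.05, Ly96 at 9.68 ± 0.930, Tlr3 at 4.21 ± 2.29 and Tlr9 at 0.173 ± 0.191 FPKM (SD, n = 2). Among neighbours in that order, Tlr13 and Cd14 overlapped between libraries, as did Tlr4 and Myd88, and the others did not. In cKO the order differed in places. Tlr7 came second at 86.8 ± 5.65 FPKM, Myd88 at 47.8 ± 1.11 FPKM stood above Tlr4 at 25.01 ± 12.95 FPKM with no overlap, and Tlr3 at 11.3 ± 3.73 FPKM overlapped Ly96 at 9.57 ± 0.0786 FPKM (SD, n = 2 each). Tlr7 and Cd14, Cd14 and Tlr2, and Tlr1 and Myd88 were the other neighbours in cKO that overlapped. The receptor that holds lipopolysaccharide with MD-2, TLR4, thus exceeded its partner at the transcript level in every library, by 3.59 and 1.65 times in cKO and by 3.87 and 2.56 times in WT.

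**Figure D1:**
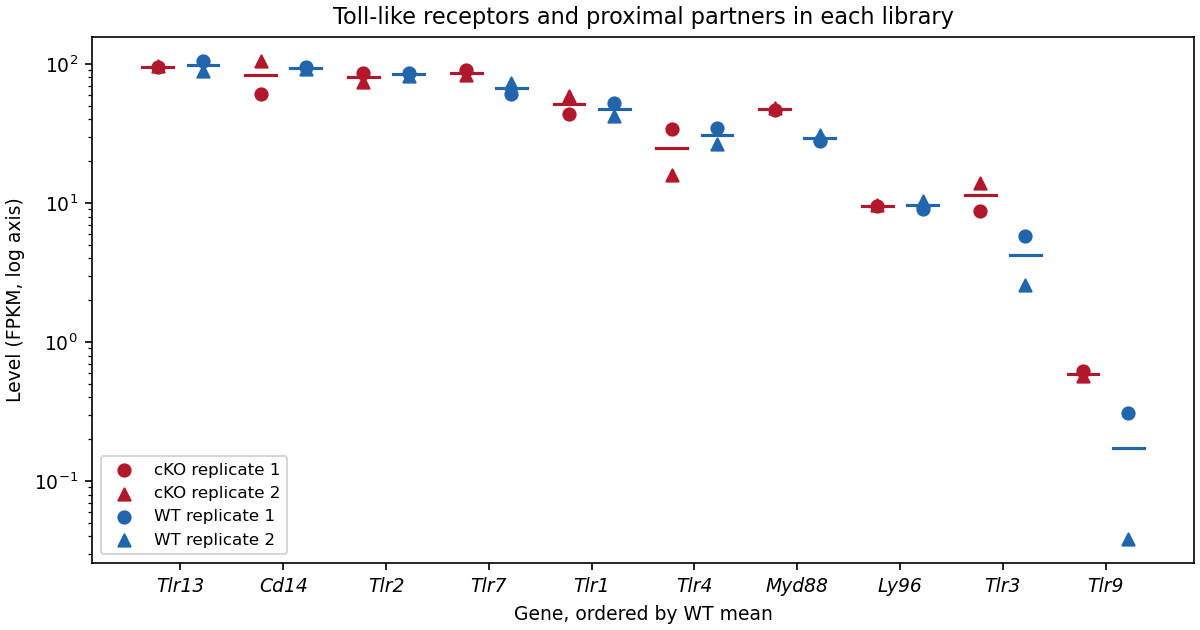
FPKM of the 10 genes (log axis) in the cKO libraries (red, left of each pair) and the WT libraries (blue, right), with replicate 1 as circles, replicate 2 as triangles and group means as lines. For Tlr7, Tlr3, Tlr9 and Myd88 both cKO points lie above both WT points, and for the other 6 genes the groups overlap.

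In cKO against WT, Tlr3, Tlr7, Tlr9 and Myd88 were higher in both cKO libraries than in either WT library, and the other 6 genes overlapped between the groups. No gene of the 10 passed the edgeR quasi-likelihood test over all 13086 genes tested, with a Benjamini-Hochberg adjusted p = 0.9997 for each, and 0% of all genes passed. Tlr3 and Myd88 were the 2 genes at an unadjusted p under 0.05, a share that was 4.65% over all genes. DESeq2 also called 0 of the 10, with 0.387% of all genes called. Lag3 itself and Cx3cr1 did not pass edgeR either, with an adjusted p = 0.9997 for each. DESeq2 called both, at adjusted p = 1.46e-20 for Lag3 and 4.08e-05 for Cx3cr1. An edgeR adjusted p = 0.9997 here thus does not show that a gene was unchanged. Both cKO libraries lay above both WT libraries for 4 of the 10 genes, against 15.8% of all genes tested, and below them for 0 of the 10, against 20.0%. The same 4 genes separated when CPM was scaled by TMM, by DESeq2-type size factors or by library totals alone, and in FPKM. The median log2 fold change was 0.0092 over the 10 genes and -0.027 over all genes tested. Without cKO replicate 2, Tlr3, Tlr7, Tlr9 and Myd88 lay above both WT libraries, where 36.0% of all genes did so. Cd14 lay below both, where 37.0% did. Without cKO replicate 1, Tlr1 and Cd14 joined the 4 genes above WT, against 36.7% of all genes, and Tlr2 and Tlr4 lay below, against 45.6%. Without WT replicate 2, Ly96 joined the 4 genes above, against 25.7% of all genes, and Tlr2, Tlr4 and Tlr13 lay below, against 31.4%. Without WT replicate 1, Tlr1 and Tlr13 joined the 4 genes above, against 24.6% of all genes, and Ly96 lay below, against 31.7%. For Tlr3, Tlr7, Tlr9 and Myd88 this outcome was fixed, since genes separated in all 4 libraries stay separated when any library is left out.

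**Figure D2:**
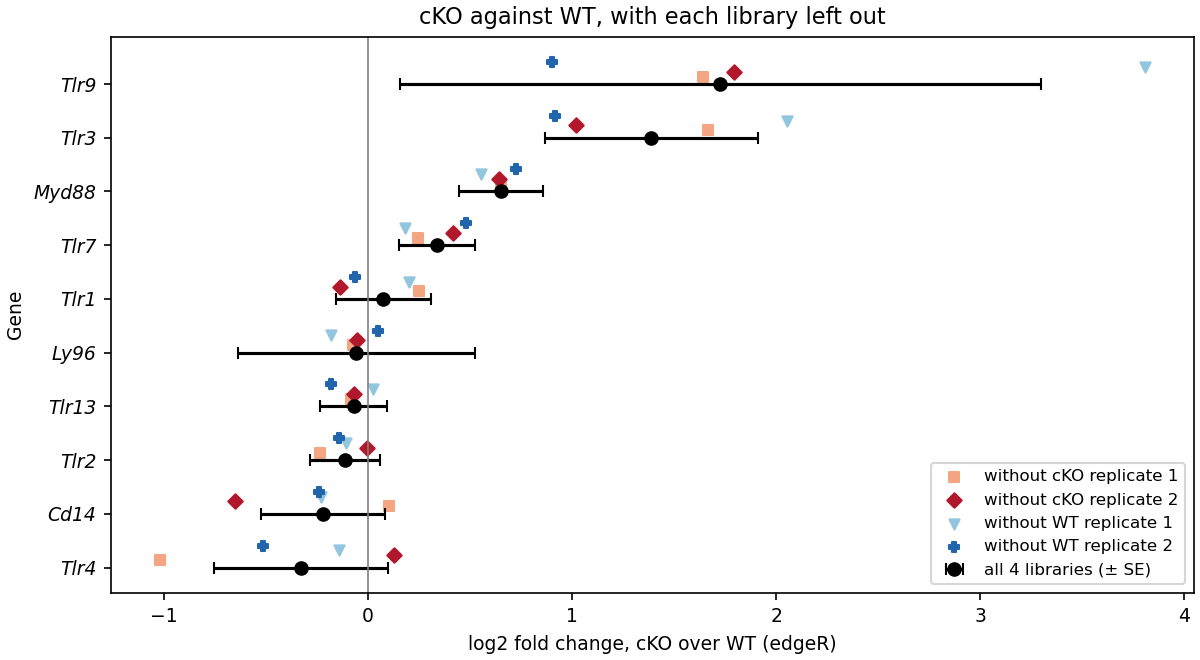
Log2 fold change of cKO over WT for each gene from edgeR. Black points with bars are the estimates from all 4 libraries ± SE, and coloured symbols are the estimates with 1 library left out. Tlr9, Tlr3, Myd88 and Tlr7, whose groups do not overlap, stay above 0 whichever library is left out, whereas Tlr1, Ly96, Tlr13, Cd14 and Tlr4 cross 0.

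Tlr3 (ENSMUSG00000031639, chromosome 8, 45395665 to 45411080 on the minus strand, GRCm38), the endosomal receptor of double-stranded RNA, had 760 and 1066 counts in the cKO libraries, against 481 and 202 in the WT libraries. Scaled by TMM, these were 45.3 and 71.1 CPM in cKO and 30.7 and 13.8 CPM in WT. Every cKO value exceeded every WT value, but the libraries of each group also lay far apart. The higher cKO library exceeded the lower by 1.57 times, and the higher WT library exceeded the lower by 2.22 times. The log2 fold change was 1.39 with a standard error of 0.52, from 0.92 without WT replicate 2 to 2.05 without WT replicate 1, and 1.02 without cKO replicate 2. The antisense gene Gm45542 overlaps Tlr3 exons and holds 5.30% of its 50-base sequences, and reads from the 2 strands cannot be told apart here.

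Tlr7 (ENSMUSG00000044583, chromosome X, 167304929 to 167330558 on the minus strand) encodes the endosomal receptor of single-stranded RNA. It had 6216 and 4950 counts in the cKO libraries, against 3919 and 4455 in the WT libraries. The CPM values were 370.2 and 330.03 in cKO and 249.9 and 304.1 in WT. The lowest cKO library was only slightly above the highest WT library. On the log2 scale the difference was 0.34 with a standard error of 0.18, between 0.18 and 0.48 with single libraries left out. Transcripts linked to sex differed between the libraries, with Xist at 6.97 and 290.4 CPM in cKO and 0 in both WT libraries, and Ddx3y at 107 and 0 CPM in cKO, against 94.7 and 89.1 CPM in WT. Tlr7 was highest in cKO replicate 1, the cKO library with Ddx3y, and without cKO replicate 2 its log2 fold change was 0.42. The part of these differences between libraries in the Tlr7 values was not tested.

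Tlr9 (ENSMUSG00000045322, chromosome 9, 106222598 to 106226883 on the plus strand), the receptor of unmethylated CpG DNA, was close to the limit of detection. It had 36 and 29 counts in the cKO libraries, against 17 and 2 in the WT libraries. In CPM this was 2.14 and 1.93 in cKO and 1.08 and 0.137 in WT. The groups did not overlap, and within WT the higher library exceeded the lower by 7.94 times. The fitted log2 fold change was 1.72 with a standard error of 1.57, and it was 3.80 without WT replicate 1 and 0.90 without WT replicate 2. Markers of B cells and plasmacytoid dendritic cells, which use Tlr9 strongly, were analysed for 3 of 7 genes. Of these Cd79a had no count in cKO replicate 1 and WT replicate 2, and the 3 summed to 308 and 305 CPM in cKO and to 276 and 255 CPM in WT, a sum that includes Cd79b and Tcf4, which other cells also express. Their part in Tlr9 was not tested.

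Tlr13 (ENSMUSG00000033777, chromosome X, 106143204 to 106160493 on the plus strand) encodes the mouse receptor of bacterial 23S ribosomal RNA. It had 6499 and 5777 counts in the cKO libraries, against 6849 and 5482 in the WT libraries, or 387.02 and 385 CPM in cKO and 437 and 374 CPM in WT. The cKO values lay between the WT values. Its log2 fold change was -0.071 with a standard error of 0.16.

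At the cell surface, Tlr2 (ENSMUSG00000027995, chromosome 3, 83836272 to 83841767 on the minus strand), the shared partner in lipopeptide recognition, varied little. It was at 257 and 220.2 CPM in cKO and 262 and 254 CPM in WT. Its log2 fold change was -0.11 with a standard error of 0.17. Tlr1 (ENSMUSG00000044827, chromosome 5, 64924679 to 64933563 on the minus strand), which pairs with TLR2 on triacylated lipopeptides, was at 146 and 192 CPM in cKO and 176 and 145 CPM in WT. The groups overlapped, with the second cKO library above both WT libraries and the first between them. The log2 fold change was 0.076 with a standard error of 0.23, and -0.14 without cKO replicate 2. Of the 50-base sequences of Tlr1, 15.4% occur in other genes, mostly in its neighbour and close copy Tlr6, so its counts are uncertain to that extent.

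Tlr4 (ENSMUSG00000039005, chromosome 4, 66827584 to 66930284 on the plus strand), the lipopolysaccharide receptor, had 3184 and 1290 counts in the cKO libraries, against 3077 and 2200 in the WT libraries. The CPM values were 189.6 and 86.01 in cKO and 196.2 and 150.2 in WT. The second cKO library was low, at less than any other, while the first lay within the WT range. The log2 fold change was -0.33 with a standard error of 0.43, and its sign depended on a single library, at -1.02 without cKO replicate 1 and 0.13 without cKO replicate 2. Ly96 (ENSMUSG00000025779, chromosome 1, 16688051 to 16709611 on the plus strand), encoding MD-2, was at 9.71 and 9.60 CPM in cKO and 9.31 and 10.8 CPM in WT. Its cKO values lay within the WT range. Its log2 fold change was -0.058 with a standard error of 0.58.

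Cd14 (ENSMUSG00000051439, chromosome 18, 36725074 to 36726736 on the minus strand), the co-receptor that hands lipopolysaccharide to MD-2, had 1600 and 2418 counts in the cKO libraries, against 2365 and 2168 in the WT libraries. This was 95.3 and 161 CPM in cKO and 151 and 148 CPM in WT. The first cKO library lay below and the second above both WT libraries, and the cKO libraries differed by 1.69 times where the WT libraries differed by 1.02 times. The log2 fold change was -0.22 with a standard error of 0.30, at 0.10 without cKO replicate 1 and -0.65 without cKO replicate 2. In cKO replicate 2, Tlr4 lay well below both WT libraries and Cd14 only slightly above them. The larger deviation of Cd14 was in cKO replicate 1. The FPKM ratio of Cd14 to Tlr4 was 1.78 and 6.62 in cKO and 2.72 and 3.48 in WT. The 10 markers of neutrophils and monocytes, which use Cd14 too, summed to 42.0 and 194 CPM in cKO and 52.0 and 19.5 CPM in WT, with 8 and 9 of them detected in cKO and 8 and 9 in WT. Ltf and Mpo had no count in cKO replicate 1, Mpo had none in cKO replicate 2 and WT replicate 2, and Ngp and Camp had none in WT replicate 1. Their part in the Cd14 and Tlr4 values was not tested.

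Myd88 (ENSMUSG00000032508, chromosome 9, 119335934 to 119341411 on the minus strand), the adaptor shared by most of these receptors, had the smallest unadjusted p of the 10 genes. It had 2031 and 1833 counts in the cKO libraries, against 1148 and 1196 in the WT libraries. In CPM it was 121.6 ± 0.893 in cKO and 77.4 ± 5.95 in WT (SD, n = 2 each), 1.57 times as high in cKO. The gap between the groups was larger than the spread within either. The log2 fold change was 0.65 with a standard error of 0.20, and stayed between 0.55 and 0.73 when each library was left out. DESeq2, run over all genes, gave an adjusted p = 0.547 for Myd88 and an adjusted p = 0.485 for Tlr3. Acaa1a overlaps Myd88 on the opposite strand and holds 7.42% of its 50-base sequences, which limits its counts in the same way as for Tlr3.

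Sequences upstream of the transcription start were available from RefSeq (GRCm38.p6) for 6 of the 10 genes, at 7 start sites, namely Tlr1, Tlr2, Tlr3, Tlr9, Tlr13 and Myd88. Myd88 is shown because it had the smallest p, and Tlr2 as a gene whose levels overlapped, as did those of Tlr1 and Tlr13. Of these, only Tlr2 holds a match to the motifs put in capitals below. Both are given 5′ to 3′ on the minus strand from 250 bases upstream of the start to the last base before an annotated exon, with motif matches in capitals.
Myd88, chr9:119340042-119340268: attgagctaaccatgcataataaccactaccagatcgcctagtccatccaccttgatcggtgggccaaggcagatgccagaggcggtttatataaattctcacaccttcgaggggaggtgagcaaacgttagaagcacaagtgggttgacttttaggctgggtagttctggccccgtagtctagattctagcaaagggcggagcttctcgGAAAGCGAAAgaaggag
Tlr2, chr3:83841768-83841858: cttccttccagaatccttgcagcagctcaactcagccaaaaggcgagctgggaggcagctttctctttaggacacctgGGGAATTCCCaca
The capitals in Myd88 match GAAA, any 2 bases and GAAA, the core of the interferon-stimulated response element, 40 to 31 bases upstream of the start. Both strands of the 250 bases upstream of each start were searched, and this core was found in 1 of the 6 genes and in 3.46% of 27025 genes. The capitals in Tlr2 match GGGA, any 4 bases and CC, a form of the NF-kB site, 172 to 163 bases upstream, and the same bases match on both strands. That form was found in Tlr2 and Tlr3 of the 6 genes and in 19.7% of all genes. GAGGAA, the core bound by PU.1 and other ETS factors, was found in Tlr1, Tlr9 and Tlr13 and in 25.9% of all genes. The Myd88 window lies inside the interval given for the gene because an annotated GENCODE transcript starts farther upstream than the RefSeq start. The Tlr2 window stops at the upstream end of its gene interval, and the RefSeq start lies inside that interval. All distances given are to the RefSeq starts. These matches describe letters in the windows and not binding.

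The make-up of the receptor transcripts was compared within each library, which does not depend on the scaling between libraries. The surface receptor Tlr6, at 25.2 and 23.2 FPKM in cKO and 29.3 and 31.2 FPKM in WT, was not included. Summed over the 7 receptors, levels were 358 and 343 FPKM in cKO and 345 and 316 FPKM in WT. The endosomal receptors Tlr3, Tlr7, Tlr9 and Tlr13 made up 54.4 and 56.5% of this sum in cKO, against 49.9 and 52.2% in WT, and Tlr1, Tlr2 and Tlr4 made up the rest. The groups did not overlap, with means of 55.4 ± 1.46% in cKO and 51.04 ± 1.62% in WT (SD, n = 2 each). With 2 libraries a group an exact two-sided permutation test cannot give less than p = 0.333. Tlr7 made up 25.3 and 24.1% in cKO and 17.5 and 23.0% in WT, Tlr3 made up 2.43 and 4.07% in cKO and 1.69 and 0.819% in WT, and Tlr9 stayed at or below 0.172% in every library. Tlr13, the largest endosomal share in each library, made up less in both cKO libraries, with 26.5 and 28.1% in cKO and 30.6 and 28.3% in WT. The higher endosomal share in cKO thus lay mostly with Tlr7 and Tlr3, whose separation is given above, and did not extend to Tlr13. Shares depend on each other, and the Tlr13 CPM values in cKO lay between those in WT. Tlr2 also made up less in both cKO libraries, with 23.9 and 21.8% in cKO and 24.9 and 26.05% in WT.

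**Figure D3:**
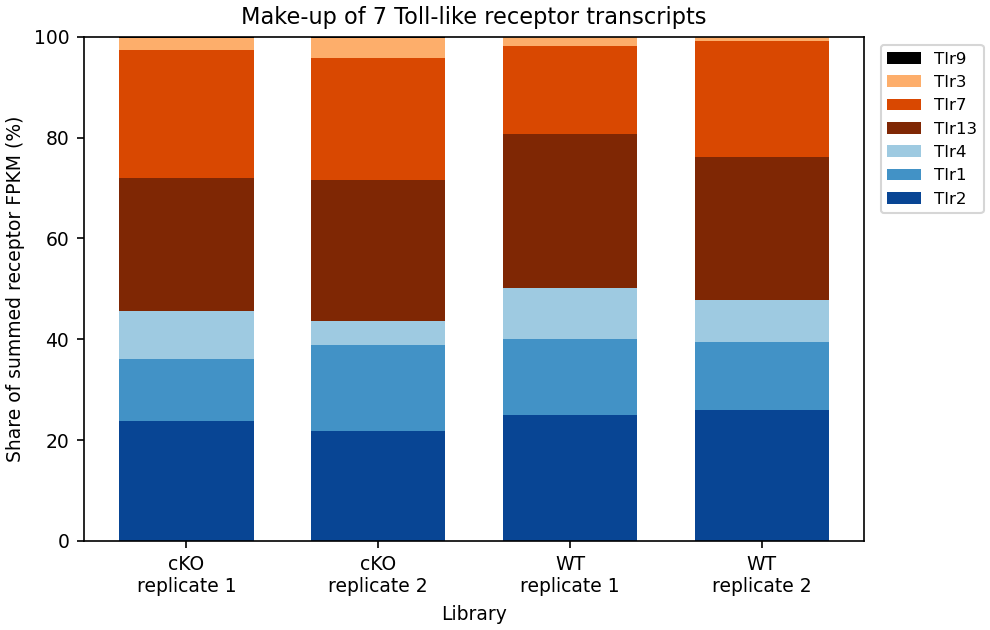
Share of each of the 7 receptors in their summed FPKM (%), by library, with the surface receptors in blue and the endosomal receptors in orange, brown and black. The surface receptors make up 45.6 and 43.5% in the cKO libraries and 50.1 and 47.8% in the WT libraries, and the black segment of Tlr9 is too thin to see.

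Interferon-induced genes, a state rather than a cell type, were followed beside the receptors. The 15 genes of that list summed to 857 and 2299.5 CPM in the cKO libraries, against 678 and 195 CPM in the WT libraries, with all 15 detected in both cKO libraries, Ifi44 at 0 in both WT libraries and Ifit1 at 0 in WT replicate 2. Tlr3 and this sum ranked the 4 libraries in the same order, with WT replicate 2 lowest and cKO replicate 2 highest. Myd88 was at 120.9 and 122 CPM in the cKO libraries, and in WT it was lower in the library with the higher interferon sum. Tlr7 was lower in the library with the higher interferon sum in both groups. Tlr9 was lower in that library in cKO, by 1.11 times, and higher in it in WT, by 7.94 times. Markers of astrocytes, which can also express Tlr3, were detected with 9 of 9 genes in all libraries but WT replicate 2, where Fgfr3 had no count, and summed to 239 and 525 CPM in cKO and 225 and 183 CPM in WT. The astrocyte sum ranked the 4 libraries in the same order as Tlr3 and the interferon sum. The part of interferon-induced genes in the Tlr3, Myd88, Tlr7 and Tlr9 values, and that of astrocyte RNA in Tlr3, was not tested.

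**Figure D4:**
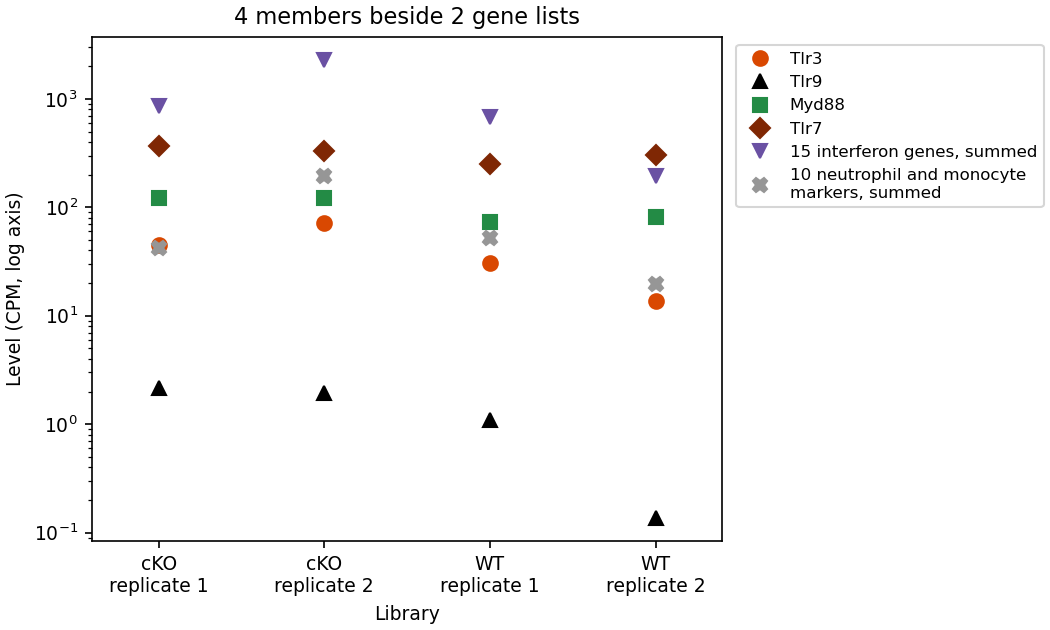
CPM (log axis) in each library of Tlr3, Tlr9, Myd88 and Tlr7, beside the summed CPM of 15 interferon-induced genes and of 10 neutrophil and monocyte markers. The interferon sum and Tlr3 are lowest in WT replicate 2 and highest in cKO replicate 2, whereas Myd88 is at 120.9 and 122 CPM in the cKO libraries and 73.2 and 81.6 CPM in the WT libraries. The astrocyte marker sum, which has the same order as Tlr3, is not plotted.

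The other genes of the pathway were followed through 7 lists with 69 genes, 62 of them tested. None of these passed edgeR or DESeq2 over all genes. At an unadjusted edgeR p under 0.05 there were 7, or 11.3% of them, against 4.65% of all genes. Both cKO libraries lay above both WT libraries for 15 and below them for 14, or 24.2 and 22.6%, against 15.8 and 20.0% of all genes. With DESeq2-type size factors, library totals or FPKM these counts were 17 and 13. Without cKO replicate 2 they were 27 and 25, or 43.5 and 40.3%, against 36.0 and 37.0% of all genes. That comparison of 3 libraries separates more genes. For each list below, the counts above and below stand against 15.8 and 20.0% of all genes. The medians stand against a median log2 fold change of -0.027 over all genes tested.

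The 5 remaining Toll-like receptors had a median log2 fold change of -0.36, with 1 gene above and 2 below WT in both cKO libraries. Without WT replicate 2 the median was 2.57, the fitted value of Tlr12. Tlr6, the partner of TLR2 for diacylated lipopeptides, was at 93.8 and 84.3 CPM in cKO and 110.6 and 119 CPM in WT, with a log2 fold change of -0.36, and it shares sequence with Tlr1. Tlr5, the flagellin receptor, had 2 and 0 counts in the cKO libraries, against 98 and 91 in the WT libraries, a ratio of cKO to WT of 0.0101 with an exact 95% interval from counting error alone of 0.00121 to 0.0370. Tlr11, a receptor of protozoan profilin, had 23 and 104 counts in cKO and none in WT. Against a floor of 3 counts per library, its level was at least 20.96-fold higher in cKO from counting error alone. That bound was 6.92-fold without cKO replicate 2 and 35.01-fold without cKO replicate 1. It leaves out the spread between libraries of a group, so it does not bound a difference between genotypes. Tlr12, the partner of Tlr11, had 0 and 24 counts in cKO and 2 and 86 in WT. Tlr8, chosen after its values were seen, had 102 and 0 in cKO and 0 and 47 in WT. Tlr12 and Tlr8 thus varied between detected and nearly absent within each group. The authors' deposited tables called Tlr5 lower and Tlr11 higher in all 4 comparisons, whereas DESeq2 gave adjusted p = 0.0528 and 0.115 for them.

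Genes for receptor trafficking and accessory proteins were nearly level, with a median of -0.0092 over 8 genes, 0 above and 2 below, or 1 below under the other scalings, where Cnpy4 overlapped. Unc93b1, which carries the endosomal receptors out of the endoplasmic reticulum, was at 1401 and 1628 CPM in cKO and 1292 and 1460.2 CPM in WT, and the groups overlapped. Lbp, the lipopolysaccharide-binding protein, was at 2.80 and 4.73 CPM in cKO and 9.89 and 5.60 CPM in WT. Cd36 and Cnpy4, named by the same rule, had log2 fold changes of 1.012 and -0.13, and of 1.47 and -0.26 without cKO replicate 2.

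Among the other adaptors the median was 0.18 over 5 genes, with 1 above and 2 below, and -0.48 and -0.34 without cKO replicate 1 and without cKO replicate 2. Pik3ap1, which links the receptors to PI3-kinase, was at 339.8 and 333 CPM in cKO and 267 and 245 CPM in WT, a log2 difference of 0.39 (SE 0.16). Ticam2, the bridge between TLR4 and TRIF, was at 37.2 and 33.7 CPM in cKO and 47.8 and 46.0 CPM in WT. Ticam1, encoding TRIF, and Tirap, the bridge between TLR4 and MyD88, had log2 fold changes of 0.18 and 0.40 with groups that overlapped, and of 0.71 and -1.30 without cKO replicate 2. Sarm1, chosen after its values were seen, had no count in cKO and 11 and 33 counts in WT. Against the floor of 3 counts per library, its level was at least 7.80-fold lower in cKO from counting error alone. That bound was 3.71-fold without WT replicate 2 and 11.9-fold without WT replicate 1, and it leaves out the spread between libraries of a group.

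Kinases and ubiquitin ligases from the Myddosome to the IKK complex had a median of -0.082 over 14 genes, with 1 above and 4 below, or 3 above under the other scalings, where Irak2 and Ikbkb joined Tab3. Traf6, the ubiquitin ligase recruited by MyD88 and IRAK proteins, was at 26.7 and 26.1 CPM in cKO and 46.9 and 38.9 CPM in WT, a log2 difference of -0.70 (SE 0.31). Irak4, the first kinase of the Myddosome, was at 41.1 and 14.1 CPM in cKO and 47.9 and 45.8 CPM in WT, with a log2 fold change of -0.76 that was -0.19 without cKO replicate 2. Ikbke, a kinase of interferon regulatory factors, had a log2 fold change of -0.996. Tab3, a TAK1-binding protein, was at 5.66 and 29.7 CPM in cKO and 2.74 and 0.0683 CPM in WT, so that both groups spread widely. Irak1 and Irak2, kinases of the same complex as Irak4 and chosen after their values were seen, had log2 fold changes of 0.53 and 0.25, and of -0.24 and 0.34 without cKO replicate 2.

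Negative regulators had a median of 0.20 over 10 genes, with 4 above and 1 below, against 15.8 and 20.0% of all genes. The median was 0.12 without cKO replicate 2 and 0.38 without WT replicate 2. Nfkbia, the inhibitor and target of NF-kB, was at 161 and 298 CPM in cKO and 122 and 147 CPM in WT, with a log2 fold change of 0.77, which was 0.25 without cKO replicate 2. Tnip1, a partner of A20, had a log2 fold change of 0.82, which was 0.31 without cKO replicate 2. Socs1, an inhibitor of cytokine signalling, had one of 1.36, and Tnfaip3, encoding A20, was at 93.5 and 91.3 CPM in cKO and 115 and 107 CPM in WT. Transcription factors had a median of 0.0014 over 10 genes, with 2 above and 3 below. Rel was at 32.5 and 42.2 CPM in cKO and 66.0 and 53.3 CPM in WT, and Irf7, an interferon-induced gene that also stands in the interferon list, was at 12.4 and 33.7 CPM in cKO and 11.8 and 2.12 CPM in WT. Irf7 had a log2 fold change of 1.73, which was 0.83 without cKO replicate 2 and 3.42 without WT replicate 1. Irf3 and Jun had log2 fold changes of -0.57 and 0.37, and of -0.29 and 0.29 without cKO replicate 2.

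Response genes had a median of 1.08 over 10 genes tested of 17, against -0.027 over all genes tested. Of the 10, 6 lay above and 0 below, against 15.8 and 20.0% of all genes. Il1b was at 24.5 and 24.6 CPM in cKO and 7.08 and 10.03 CPM in WT. Il1a was at 145 and 219 CPM in cKO and 89.4 and 90.7 CPM in WT. Tnf was at 56.9 and 116 CPM in cKO and 18.2 and 33.2 CPM in WT, and the chemokine gene Ccl2 was at 321 and 749 CPM in cKO and 242 and 241 CPM in WT. All 4 lay above WT in both cKO libraries. They were at an unadjusted edgeR p under 0.05, and none passed over all genes. These genes were named for the smallest unadjusted p of the list, so their p and separation are no independent result. Of the rest, Il6 and Nfkbiz also lay above WT, at log2 fold changes of 2.43 and 0.31. Ccl3, Ccl4, Cxcl10 and Ptgs2 overlapped between the groups, at 0.021, 0.26, 3.18 and -0.71. The log2 fold changes of Tnf and Ccl2 were 1.75 and 1.15, and 1.14 and 0.40 without cKO replicate 2. Without cKO replicate 2, the library with the higher neutrophil and monocyte sum, the median of the list was 0.35, and it was 1.40 without cKO replicate 1. The part of these cells in the response genes was not tested. Il12b, Cxcl1, Ifnb1, Nos2 and Il10 were not analysed here, and Cxcl2 and Ccl5 had too few counts to be tested.

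**Figure D5:**
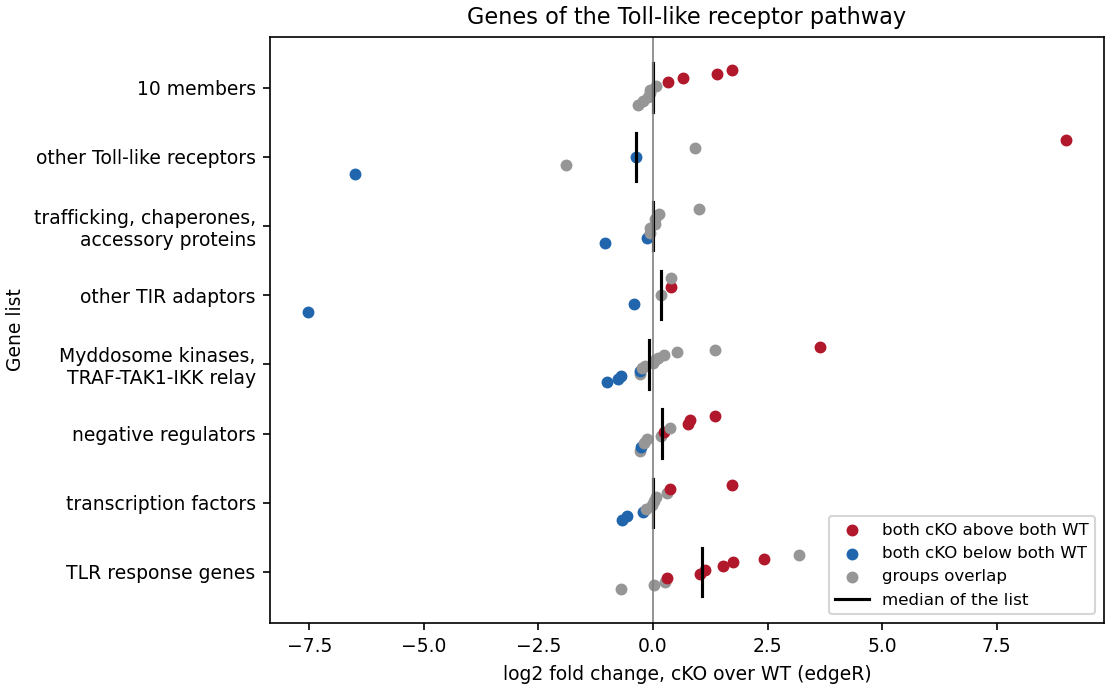
Log2 fold change of cKO over WT from edgeR for the 10 members and for each list of the pathway, 1 point per gene, with a line at the median of each list. Red points have both cKO libraries above both WT libraries, blue points below. The fitted values of Tlr11 (far right) and Sarm1 (far left), each with no count in a group, depend on the prior count and are not bounds.

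The authors compared each cKO library with each WT library in 4 tables that share libraries. These tables carry no replicate error. By their own rule, which requires a 2-fold difference, the authors' deposited tables called 36.1 and 34.8% of genes for cKO replicate 1 over WT replicates 1 and 2, and 46.8 and 48.8% for cKO replicate 2 over WT replicates 1 and 2. None of the 10 genes was called in all 4 of the authors' deposited tables, where 1.62% of genes were called higher and 3.75% lower. Tlr3 and Tlr9 were called higher in 3 of the 4, where 3.82% of genes were called higher in at least 3, and no member was called lower in as many, where 5.87% of genes were. For Tlr3 the ratio in the authors' deposited tables was 1.49 and 3.36 for cKO replicate 1 over WT replicates 1 and 2, and 2.40 and 5.40 for cKO replicate 2 over them. For Tlr9 these ratios were 2.002, 16.1, 1.85 and 14.8 in the same order, so that the first call lay at the limit of the rule. Tlr4 was called lower in the authors' deposited table of cKO replicate 2 over WT replicate 1 only, at a ratio of 0.454. Myd88 had ratios of 1.67, 1.52, 1.73 and 1.57 in the authors' deposited tables and was called in none.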

How the data were processed

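RNA-seq data of 2 cKO and 2 WT libraries were used. Per the submitters' processing notes, HTSeq 0.6.0, TopHat2 2.0.12 and Bowtie2 2.2.3 were used with the build mm9. Settings, strand and annotation are not given in the sources used here. The gene positions match GRCm38 instead, since GENCODE M21 places 92.1% of the 21008 genes found in both at the same coordinates, as it does 9 of the 10 members. Positions are therefore given as GRCm38. Per the file headers, the authors deposited FPKM for 21044 genes, and 4 tables of 1 cKO against 1 WT library. The authors' tables hold read counts per gene and a normalized signal (CPM, with 0 counted as 0.5). The authors also deposited fold changes as a ratio and as log2 values, with p-values and adjusted p-values from a test not given in the sources used here. The deposited adjusted p-value was below the p-value for 78.9 to 86.3% of genes in each table, which a Benjamini-Hochberg adjustment cannot give.

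Counts were joined for 18459 genes, and 4315 of 73836 values missing from the tables were recovered from FPKM, 100.0% of them whole within 1e-06, the highest being 4. No value of a member was recovered. edgeR 4.0.16 in R 4.3.3 was run with TMM, filterByExpr, the quasi-likelihood test and Benjamini-Hochberg adjustment at 0.05. All 10 members passed the filter. Standard errors were derived from the F statistic. Alternatives were DESeq2 1.42.0, limma 3.58.1 on log2(FPKM + 1) or log2(FPKM + 0.1), other scalings and filters, a replicate block and leaving out each library. The scripts were tested on simulated data. Chi-square per degree of freedom was 119 between the cKO libraries and 29.4 between the WT libraries, well beyond sampling noise, so each counted as 1 sample.

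Members, lists and tests were chosen with earlier results of these data known. Besides the 10 members, up to 4 genes of each list were named by the smallest unadjusted p at a mean of at least 1 CPM. The remaining tested response genes were named as well.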

Additional observations from a re-analysis of the deposited data

How the results depend on the processing

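No member was called by edgeR under TMM, the other scalings and filters or the replicate block, by limma, by DESeq2 or with any library left out. Over all genes edgeR called 0, DESeq2 52, and sets of 3 libraries 0 to 910. The highest of these counts came without cKO replicate 1, a set that keeps cKO replicate 2, the library that stood apart. Both fits with 1 cKO library take its spread from WT. What raised that count was not tested. Same-numbered libraries share only a number (correlation of deviations -0.017 across genes), and with the replicate block 0 genes were called, against 0 without it. Members at an unadjusted edgeR p under 0.05 numbered 0 with the block, against 2 without it, and 1 and 0 without WT replicate 1 and without WT replicate 2. The log2 fold change turned sign for Tlr1 without WT replicate 2 (-0.063) and cKO replicate 2 (range -0.14 to 0.25), Tlr4 without cKO replicate 2 (-1.02 to 0.13), Tlr13 without WT replicate 1 (-0.18 to 0.025), Cd14 without cKO replicate 1 (-0.65 to 0.10) and Ly96 without WT replicate 2 (-0.18 to 0.048). The median over the members was 0.053 with library totals, 0.049 and 0.050 with limma at pseudocounts of 1 and 0.1, and -0.0075 to 0.17 over leaving out each library. Leaving out each library moved the medians over -0.91 to 2.57 for the other receptors, -0.11 to 0.0058 for trafficking genes, -0.48 to 0.20 for adaptors, -0.22 to 0.0019 for the kinase relay, 0.12 to 0.38 for negative regulators, -0.16 to -0.017 for transcription factors and 0.35 to 1.40 for response genes. Trafficking genes had 0.033 with library totals and 0.030 and 0.031 with limma at 1 and 0.1, adaptors 0.0015 with limma at 0.1 and -0.053 with the replicate block, transcription factors -0.065 with the replicate block, and response genes 0.67 with DESeq2 and 0.65 with all genes counted, in both of which 12 genes entered. The cause of the other shifts was not tested. Leaving out each library, a check added after the data were seen, left 4 to 6 members above and 1 to 3 below WT without overlap. The 4 members separated in all libraries could only remain above. At the authors' adjusted p under 0.001, Tlr3 was still called higher in 3 tables and Tlr9 in 2. Thus 1 member rather than 2 was called in at least 3 tables. The share of all genes called at that limit was not computed.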
